A study of Mus musculus and Acomys cahirinus with 2 samples.

Results

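Skin myeloid cells of the ear were 44 barcodes of 12970 in the Acomys library and 69 of 15342 in the Mus library, 113 of 28312 in all. A barcode, which tags the RNA of 1 droplet, entered with at least 500 UMIs (unique molecular identifiers, each standing for 1 captured transcript) and 200 genes, and in Mus with at most 20% of UMIs on mitochondrial genes. Members were then chosen by the measured counts of a few genes: a barcode was kept when Tyrobp, Fcer1g, Csf1r, C1qa and C1qb together had at least 3 UMIs, the CD3 genes had 0, and the keratin Krt10 took under 2% of UMIs. The samples were adult ear skin of the species Acomys cahirinus, a spiny mouse studied because its injured ears regrow, and of Mus musculus, the house mouse. Each species gave 1 library by the 10x Genomics Chromium 3′ assay, labelled day 0, although the text of the series calls the ears injured. No strain, genotype, sex or number of animals is given in the labels of either library. With 1 library a species there was no replicate and no test, so every interval below covers counting error alone, and species, animal, library and gene annotation cannot be told apart.

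Myeloid cells of the skin comprise Langerhans cells of the epidermis, macrophages and dendritic cells of the dermis, and monocytes and neutrophils that enter from blood. TYROBP and FCER1G are adaptor proteins that pass signals from many receptors of these cells through ITAM motifs, CSF1R is the growth factor receptor on which macrophages and Langerhans cells depend, and C1q is the complement starter that tissue macrophages make. Langerhans cells carry langerin, encoded by Cd207, and present antigen on MHC class II, whose invariant chain is encoded by Cd74.

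The Acomys library held 71042559 UMIs and the Mus library 130039670. Gene values are CPM, UMIs per 1000000 over the 15710 gene symbols found in both gene lists, and a shared symbol need not mark the same gene in both species. Members had a median of 1939.5 UMIs in Acomys (533 to 10374) and 2284 in Mus (514 to 32405), and other barcodes had a median of 1138 in Acomys and 2894 in Mus. Under 1000 UMIs lay 11 Acomys and 20 Mus members. The member richest in UMIs gave 9.94% of all member UMIs in Acomys and 12.7% in Mus. Keratin genes took a median of 1.28% of UMIs in Acomys members, against 3.50% in other Acomys barcodes, and 1.60% in Mus members, against 4.49% in other Mus barcodes. In droplets of 1 to 10 UMIs, which hold free RNA, that share was 3.56% in Acomys and 4.13% in Mus. A Krt10 UMI stood in every member of both libraries, so free keratin RNA or keratinocyte transcripts were present in all of them, and their part in the results was not tested. No member barcode was a member in both libraries, and 1 Mus member's barcode also passed the limits in Acomys.

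The share of barcodes that were members was 0.339% in Acomys (95% Clopper-Pearson interval 0.247 to 0.455) and 0.450% in Mus (0.350 to 0.569). Of 72 Acomys and 107 Mus barcodes with 3 UMIs of the rule genes, CD3 UMIs removed 21 in Acomys and 35 in Mus, and Krt10 removed 7 in Acomys and 3 in Mus. What the rule counted differed between the libraries. In Acomys members 74.7% of the rule UMIs were Fcer1g, with 484 UMIs in 40 members, and Tyrobp gave 63 UMIs in 27. In Mus members 50.6% were Tyrobp, with 386 UMIs in 62 members, and Fcer1g gave 210 in 52. Csf1r gave 70 UMIs in 25 Acomys members and 124 in 40 Mus members. The complement genes were sparse, at 14 UMIs of C1qa in 5 and 17 of C1qb in 4 Acomys members, against 39 of C1qa in 16 and 4 of C1qb in 2 Mus members. Fcer1g was the sole rule gene in 9 Acomys and 3 Mus members. These values describe the choice and support nothing further.

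The 10 Acomys members just inside the limit, with exactly 3 rule UMIs, had Cd74 in 7, Coro1a in 7 and Spi1 in 3. The 11 Acomys barcodes just outside, with 2, had Cd74 in 5, Coro1a in 2 and Spi1 in 3. In Mus the 17 members with 3 rule UMIs had Cd74 in 14, Coro1a in 2 and Spi1 in 2, and the 28 barcodes with 2 had Cd74 in 18, Coro1a in 4 and Spi1 in 8.

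Leukocyte genes outside the rule stood in most members. A list of 12 pan-leukocyte genes, 11 of them with a symbol in the Acomys list, had no UMI in 5 Acomys members and in 1 Mus member. At least 1 such UMI stood in 88.6% of Acomys members, against 21.2% of other Acomys barcodes, and in 98.6% of Mus members, against 29.7% of other Mus barcodes. Spi1, which encodes PU.1, the transcription factor that drives myeloid development, had 83 UMIs in 28 Acomys members and 138 in 44 Mus members. That is 63.6% of Acomys members, against 0.472% of other Acomys barcodes, and 63.8% of Mus members, against 0.766% of other Mus barcodes. The 10 mast cell markers, 8 of them with a symbol in the Acomys list, had 0 UMIs in Acomys members and 37 in 5 Mus members. The 7 markers of type 1 dendritic cells, 6 of them with a symbol in the Acomys list, had 8 UMIs in 2 Acomys members and 13 in 9 Mus members. Among them Batf3 had 8 UMIs in the members of each library, and Xcr1 and Clec9a had 0. The 8 markers of type 2 dendritic cells, 5 of them with a symbol in the Acomys list, had 2 UMIs in 2 Acomys members and 76 in 30 Mus members. One of these, Cd209d, a lectin gene of mouse dendritic cells, had 0 UMIs in Acomys members and 26 in 15 Mus members. Of these 26 UMIs, 24 stood in 13 members that also held Cd207, so Cd209d did not mark a set apart from the Cd207 members. By Spi1 and the pan-leukocyte genes, which the rule did not read, the label fitted most members, with exceptions given further on.

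**Figure D1:**
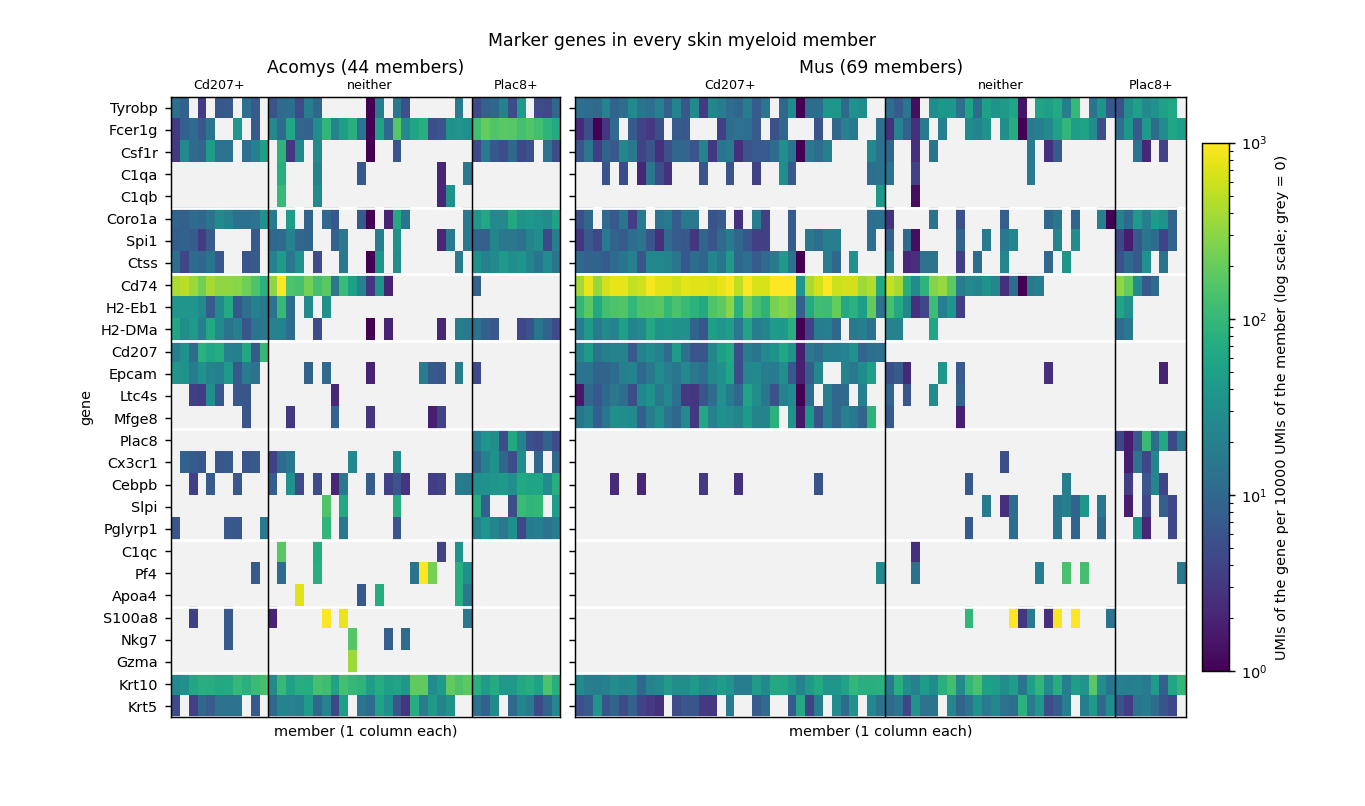
UMIs of marker genes per 10000 UMIs of the member (colour, log scale, grey for 0), with 1 column for each of the 44 Acomys and 69 Mus members and 1 row a gene. Black lines part members with a Cd207 UMI (11 Acomys, 35 Mus), with neither Cd207 nor Plac8, and with a Plac8 UMI (10 Acomys, 8 Mus). Cd74 fills the Cd207 columns of both libraries, and the Acomys Plac8 columns are filled by Fcer1g, Cebpb and Coro1a and nearly empty of Cd74.

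Within each library, members were set against all other barcodes, which are mainly epidermal. Genes were counted here with at least 20 UMIs in members, either observed or expected at the rate of other barcodes. Of 864 such Acomys genes, 19.1% stood at least 2-fold higher in members, while 12.4% stood 2-fold or more below other barcodes. Of 1895 such Mus genes the shares were 15.3% and 11.0%. Among the 450 shared genes with 20 UMIs in the members of each library, 32 were at least 10-fold higher in members of both, and 16 at least 100-fold. Besides the rule genes Csf1r, Tyrobp and Fcer1g, the 16 were Cd74, H2-Eb1, Ctss, Spi1, Cd207, Ncf4, Cfp, Rnase6, Plac8, Lsp1, Coro1a, Tnfaip8l2 and Apbb1ip. Ctss encodes cathepsin S, which trims the invariant chain, and H2-Eb1 an MHC class II beta chain. Members over other barcodes, Cd74 was 587-fold higher in Acomys and 460.2-fold in Mus, Ctss 582-fold in Acomys and 514.5-fold in Mus, H2-Eb1 492-fold in Acomys and 362-fold in Mus, and Cd207 437-fold in Acomys and 627-fold in Mus. Coro1a, an actin regulator of leukocytes, was 155-fold higher in Acomys members and 211-fold in Mus members. The keratins lay on the other side, with Krt10, which the rule limits, at 0.209 of the level in other Acomys barcodes and 0.173 in Mus, and Krt5, a keratin of basal cells, at 0.376 in Acomys and 0.646 in Mus.

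**Figure D2:**
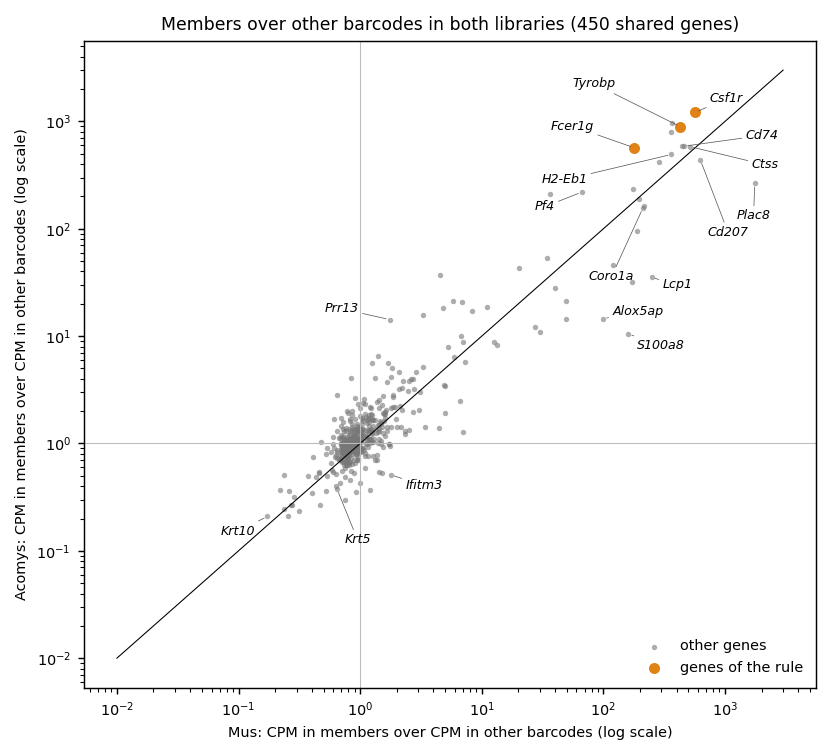
CPM in members over CPM in other barcodes, Mus on the horizontal and Acomys on the vertical axis (both log scales), for the 450 genes with 20 UMIs in the members of each library. Each grey point is a gene, orange points are rule genes, and the diagonal marks equal ratios. A group of 16 genes lies above 100-fold on both axes, and Ifitm3 lies below 1 in Acomys, at 0.511, and above 1 in Mus, at 1.79.

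Of the 13 genes above 100-fold that the rule did not read, 6 had 1 promoter in the mouse RefSeq table of build GRCm38.p6, and the 3 of these that held a searched motif are shown. Each line gives the 200 bases before the start, 5′ to 3′ on the gene's strand, with a motif in capitals. The motifs searched on both strands were GAGGAA, the core bound by PU.1, and CTGATTGG, the Y box of MHC class II promoters.
Ctss, chr3:95526586-95526785, plus strand: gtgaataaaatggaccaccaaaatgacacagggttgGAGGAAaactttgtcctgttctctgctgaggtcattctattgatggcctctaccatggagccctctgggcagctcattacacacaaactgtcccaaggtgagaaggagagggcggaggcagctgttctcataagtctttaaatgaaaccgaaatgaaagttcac
H2-Eb1, chr17:34305667-34305866, plus strand: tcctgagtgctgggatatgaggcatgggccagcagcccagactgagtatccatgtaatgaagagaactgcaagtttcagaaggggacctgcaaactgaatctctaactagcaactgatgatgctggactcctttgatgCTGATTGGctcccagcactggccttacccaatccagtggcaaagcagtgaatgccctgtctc
Cd207, chr6:83677858-83678057, minus strand: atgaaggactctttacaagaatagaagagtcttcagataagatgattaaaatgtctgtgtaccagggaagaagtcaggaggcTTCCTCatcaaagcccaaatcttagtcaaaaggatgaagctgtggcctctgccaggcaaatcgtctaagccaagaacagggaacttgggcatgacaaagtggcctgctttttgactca
The PU.1 core began 164 bases before the Ctss start on the gene's strand and 118 bases before the Cd207 start on the opposite strand, where it reads TTCCTC. The Y box began 62 bases before the H2-Eb1 start. Over all 32851 mouse promoters of that length, GAGGAA stood in 6250 (19.0%) and CTGATTGG in 1164 (3.54%), and over the 6 genes GAGGAA stood in 2 and CTGATTGG in 1. A match is a stretch of letters only, and no Acomys promoter was read.

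Cd207 marked a large share of members in both libraries. It had 90 UMIs in 11 Acomys members (25%, interval 13.2 to 40.3) and 254 in 35 Mus members (50.7%, 38.4 to 63.0). Thinned to 500 UMIs a member, the shares were 18.2% in Acomys and 29.0% in Mus, and in other barcodes, unthinned, 0.456% in Acomys and 0.930% in Mus. All Cd207+ members of both libraries had Cd74, and 10 of 11 in Acomys and 32 of 35 in Mus had Epcam, the adhesion molecule that Langerhans cells share with keratinocytes. Their median was 1523 UMIs in Acomys and 3067 in Mus. Members without Cd207 had a median of 2026 UMIs in Acomys and 1413 in Mus, so the UMI depth of this split ran opposite ways in the libraries.

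Plac8, a gene of monocytes and other leukocytes, was found in other members. It had 46 UMIs in 10 Acomys members (22.7%) and 91 in 8 Mus members (11.6%), or 9.09% in Acomys and 4.35% in Mus after thinning. In other barcodes, unthinned, the shares were 0.232% in Acomys and 0.118% in Mus. In neither library did a member hold a UMI of both genes, which for counts of 0 allows shares of up to 6.82% in Acomys and 4.35% in Mus. That limits members with UMIs of both, not cells that express both.

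The question of the design was how the same cells differ between the species at day 0. The 1860 shared genes counted had at least 20 UMIs over the members of both libraries together. Of these, 18.0% were at least 2-fold higher in Acomys members, while 24.6% were 2-fold or more lower. Their median log2 ratio was 0.04. Each ratio of Acomys to Mus CPM is given with its 95% interval and, where it helps, with the same ratio in other barcodes. Those barcodes are mainly epidermal, so their ratio holds differences of the whole library together with differences of epidermal cells.

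Of the MHC class II genes, Cd74, H2-Eb1 and H2-Ab1 had lower values in Acomys members and also in the other barcodes of Acomys, whereas H2-DMa did not follow them. Of the 4 measured genes of the list, 0 were 2-fold or more higher and 3 were 2-fold or more lower, with a median log2 ratio of -2.2. Cd74 had 0 to 265 UMIs a member in Acomys, 17491 CPM, and 0 to 513 in Mus, 51641 CPM, a ratio of 0.339 (0.319 to 0.360) beside 0.265 in other barcodes. It was absent from 18 Acomys members and from 11 Mus members. H2-Eb1 had 98 UMIs in 16 Acomys and 1639 in 46 Mus members, a ratio of 0.140 (0.113 to 0.171) beside 0.103 in other barcodes. H2-DMa, part of the DM molecule that loads peptides, had 121 UMIs in 28 Acomys and 358 in 38 Mus members, a ratio of 0.790 (0.637 to 0.973) beside 1.57 elsewhere. H2-Ab1 gave 3 UMIs in Acomys members and 2718 in Mus members, but other Acomys barcodes were also near 0, at 0.184 CPM against 37.0 in Mus. H2-Aa, with 2461 UMIs in 47 Mus members, had no symbol in the Acomys gene list.

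**Figure D3:**
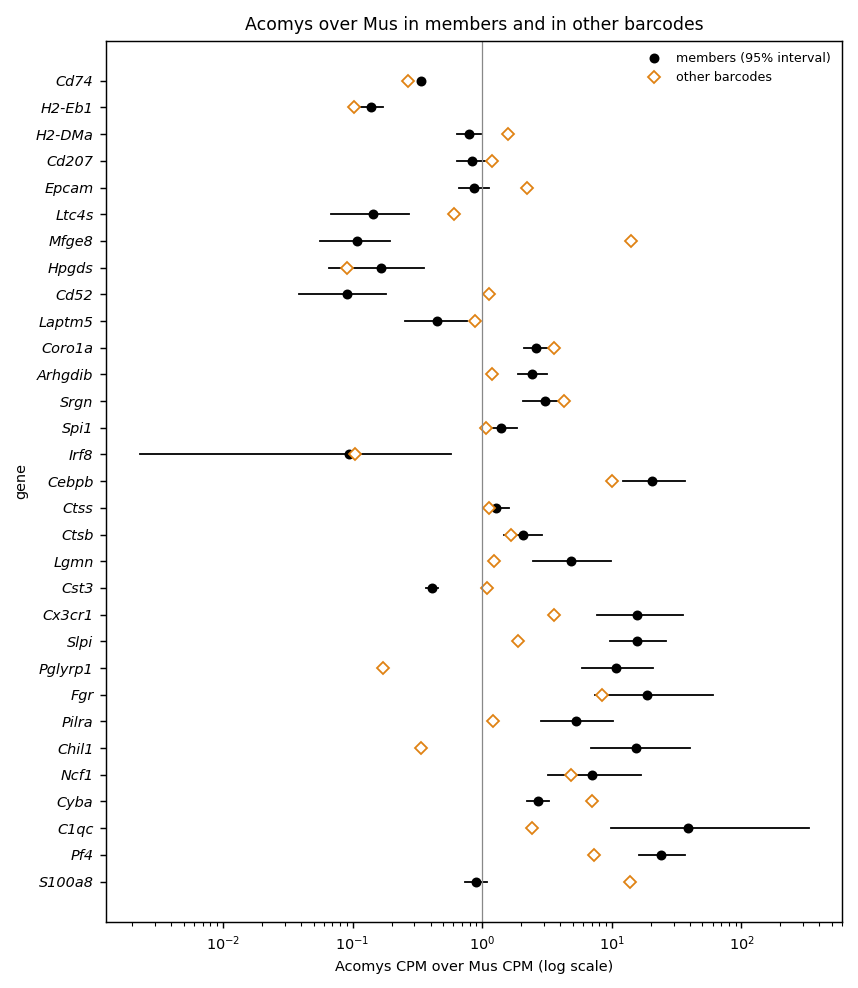
Acomys CPM over Mus CPM (log scale) for 31 genes, 1 a row: black points are members with 95% intervals of counting error, and orange diamonds are other barcodes. Mfge8 lies left of 1 in members, at 0.109, and right of it in other barcodes, at 14.0. Pglyrp1 and Chil1 lie right of 1 in members, at 10.7 and 15.4, and left of it in other barcodes.

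Among Langerhans cell markers, 0 of 7 measured genes were at least 2-fold higher in Acomys members and 2 were lower, with a median log2 ratio of -0.29. The lower pair were Mfge8 and Ltc4s. Cd207 itself had a ratio of 0.828 (0.644 to 1.06) and Epcam 0.864 (0.657 to 1.13). Mfge8, which encodes a bridge protein for the uptake of dead cells and is abundant in mouse Langerhans cells, had 12 UMIs in 6 Acomys members and 257 in 35 Mus members. Its ratio was 0.109 (0.0556 to 0.194) in members and 14.0 in other barcodes, so the species order was the opposite elsewhere in the skin. Ltc4s, the synthase of leukotriene C4, had 10 UMIs in 7 Acomys and 162 in 35 Mus members, a ratio of 0.144 (0.0679 to 0.272) beside 0.607 elsewhere. Runx3, a transcription factor that Langerhans cells need in mice, had 0 UMIs in Acomys members and 9 in 8 Mus members.

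Restricting both libraries to Cd207+ members compares more similar cells, 11 in Acomys and 35 in Mus, with Cd207 then a part of the choice. Cd74 had 5 to 265 UMIs, median 49, in Acomys and 5 to 513, median 205, in Mus. Its ratio was 0.671 (0.623 to 0.722), nearer to 1 than over all members. H2-Eb1 stayed lower, at 72 UMIs in 11 Acomys and 1438 in 35 Mus members and a ratio of 0.312 (0.243 to 0.396). H2-DMa was on the other side of 1, with a ratio of 1.64 (1.27 to 2.09), and Epcam had 2.03 (1.5 to 2.70). Both genes were also higher in Acomys in other barcodes, H2-DMa with a ratio of 1.57. Csf1r, a rule gene, had 32 UMIs in 10 Acomys and 106 in 31 Mus members, a ratio of 1.88 (1.23 to 2.82).

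Mfge8 separated the Cd207+ members of the species almost completely. It had 1 UMI in 1 of the 11 Acomys members and 251 in 33 of the 35 Mus members, a ratio of 0.0248 (0.000627 to 0.140). In members without Cd207 it had 11 UMIs in 5 in Acomys and 6 in 2 in Mus. Cst3, which encodes the protease inhibitor cystatin C, had 100 UMIs in 10 Acomys and 1912 in 35 Mus members, a ratio of 0.326 (0.264 to 0.399), whereas in members without Cd207 the ratio was 0.939 (0.805 to 1.09). Napsa, an aspartic protease, had 0 UMIs in Acomys and 110 in 27 Mus members, at least 5.88-fold lower in Acomys by a floor of 3 counts over the group. The leukocyte surface gene Cd52 had 0 UMIs in Acomys and 109 in 29 Mus members, at least 5.83-fold lower in Acomys. Ptgs1, a cyclooxygenase of prostaglandin synthesis, had 0 UMIs in Acomys and 71 in 26 Mus members, at least 3.80-fold lower in Acomys. Ptgs1 was also near 0 in other Acomys barcodes, at 1.29 CPM against 132 in Mus, whereas Cd52 was not, at 9.67 CPM against 8.62.

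Other genes were higher in the Acomys Cd207+ members. Il18, which encodes an inflammasome cytokine, had 36 UMIs in 8 of 11 Acomys and 31 in 12 of 35 Mus members, a ratio of 7.24 (4.36 to 12.1). Rnase6, an antimicrobial ribonuclease of phagocytes, had 28 UMIs in 8 Acomys and 16 in 13 Mus members, a ratio of 10.9 (5.70 to 21.6). Ncf1, a cytosolic subunit of the phagocyte NADPH oxidase, had 14 UMIs in 8 Acomys members and 2 in 1 Mus member, a ratio of 43.7 (10.0 to 396). Cx3cr1, the fractalkine receptor, had 10 UMIs in 7 Acomys members and 0 in Mus members, at least 20.8-fold higher by the same floor. The leukocyte genes Coro1a and Arhgdib had ratios of 2.51 (1.60 to 3.86) and 4.47 (2.95 to 6.72). Outside the members, Il18 was also higher in Acomys, with a ratio of 14.9 in other barcodes. Coro1a, Rnase6 and Cx3cr1 were higher there too. The ratio in other barcodes was 2.21 for Rnase6 and 3.55 for Coro1a, above the 2.51 of Coro1a in Cd207+ members.

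**Figure D4:**
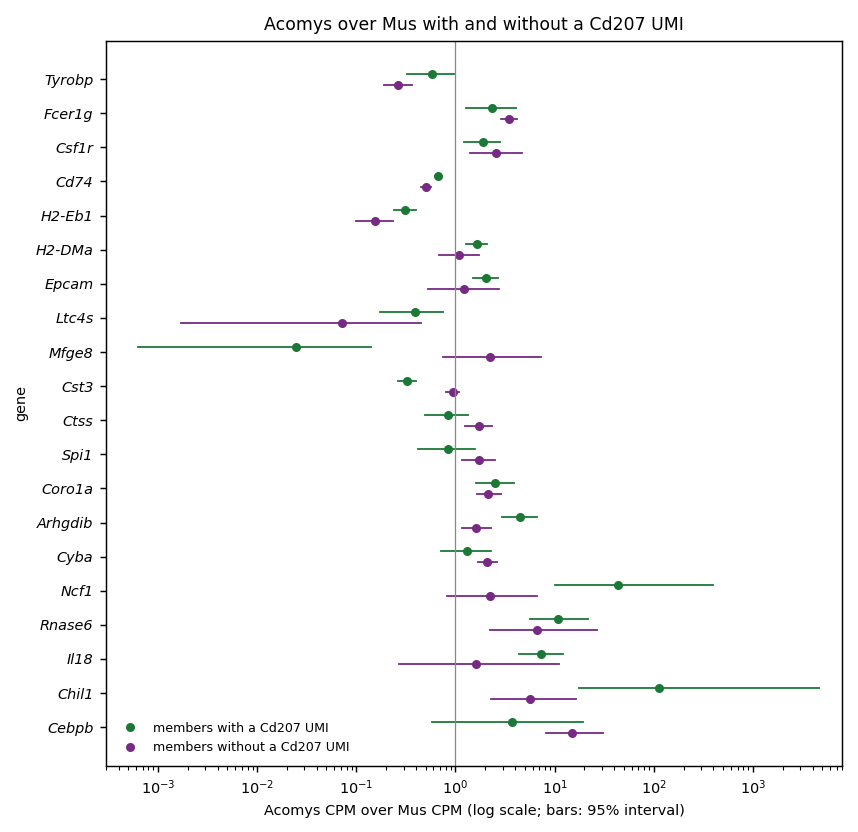
Acomys CPM over Mus CPM (log scale) with 95% intervals of counting error, for 20 genes, 1 a row, in members with a Cd207 UMI (green, 11 Acomys and 35 Mus) and without (purple, 33 and 34). The intervals of Mfge8 and Cst3 lie left of 1 in green and hold 1 in purple. Il18, Ncf1, Rnase6 and Chil1 lie right of 1 in green, and Cebpb lies at 15.03 in purple.

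The 10 Plac8+ members of Acomys had total UMIs from 1766 to 2975. Cebpb, a transcription factor of monocytes and granulocytes, had 6 to 16 UMIs in each, and Coro1a 5 to 15. Prr13 had 5 to 16 UMIs, and Ctss, Spi1, Pglyrp1 and the Src-family kinase Fgr were present in all 10. Cx3cr1 had 31 UMIs in 8 of them and Slpi, a secreted protease inhibitor, 90 in 7. Cd74 gave 2 UMIs in 1 of them, and Ccr2, the receptor of classical monocytes in mice, gave 0. As a description only, the rule gene Fcer1g had 14 to 47 UMIs in each, 299 of the 484 of all Acomys members.

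The 8 Plac8+ members of Mus were uneven, with totals from 614 to 8834 UMIs. Plac8 had 51 UMIs in 1 of them, 31 in another, and 1 to 4 in the other 6. The rule gene Fcer1g had 1 to 22 UMIs in each. Cebpb had 9 UMIs in 4 of them and at most 3 a member, below the lowest value of 6 in the Acomys set. Cd74 had 393 UMIs in 5 and Ccr2 30 in 3. Lyz2, which encodes lysozyme of macrophages and monocytes, had 445 UMIs in 7, but it had no symbol in the Acomys list. Over all members 5 in Mus had at least 50 Lyz2 UMIs, 123 to 162 each, with Ccr2 in 4 and Ly6c2, a mark of classical monocytes in mice, in 2.

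Over all members, which include the 10 Acomys Plac8+ members, several genes found in those 10 were higher in Acomys. The 10 held 99 of the 140 Acomys UMIs of Cebpb, 90 of the 133 of Slpi and 45 of the 64 of Pglyrp1. They also held 26 of the 40 of Fgr, 25 of the 36 of Pilra and 31 of the 60 of Cx3cr1. The ratios below are therefore not a separate observation. Cebpb had 140 UMIs in 27 Acomys and 16 in 11 Mus members, a ratio of 20.4 (12.2 to 36.8) beside 10.1 in other barcodes. Cx3cr1 had 60 UMIs in 20 Acomys and 9 in 5 Mus members, a ratio of 15.6 (7.68 to 35.7) beside 3.57. Slpi had 133 in 10 Acomys and 20 in 12 Mus members, a ratio of 15.5 (9.67 to 26.3) beside 1.89. Fgr had 40 in 19 Acomys and 5 in 4 Mus members, a ratio of 18.7 (7.38 to 60.7) beside 8.36. Pglyrp1, a bactericidal peptidoglycan-binding protein of granules, had 64 in 17 Acomys and 14 in 8 Mus members, a ratio of 10.7 (5.93 to 20.6) beside 0.172. Pilra, an inhibitory receptor of myeloid cells, had 36 in 12 Acomys and 16 in 12 Mus members, a ratio of 5.26 (2.84 to 10.2) beside 1.22. With the mean of each member's CPM in place of the sum, the log2 ratio of Slpi was 2.78, against 3.93 by the sum, and that of Cx3cr1 was 2.90, against 3.90, and the cause was not tested.

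Smaller sets held markers of other myeloid cells. C1qa, C1qb and C1qc together reached 10 UMIs in 2 Acomys members and 1 Mus member. The 2 Acomys members had 14 and 15 UMIs of C1qc, 25 and 97 of Cd74 and 5 and 8 of Csf1r. The Mus member had 10 UMIs of C1qa, 404 of Cd74 and 0 of C1qc. Of the macrophage list, 4 of 6 measured genes were at least 2-fold higher in Acomys members and 1 lower, but the 6 include the rule genes C1qa and C1qb, so the count supports nothing. C1qc had 33 UMIs in 4 Acomys and 2 in 1 Mus members, a ratio of 38.6 (9.86 to 332). Cd68, a lysosomal marker of phagocytes, had 21 in 15 Acomys and 24 in 17 Mus members, a ratio of 2.04 (1.08 to 3.83) beside 0.359 elsewhere. Cd14, the lipopolysaccharide co-receptor, had 0 UMIs in Acomys members and 36 in 7 Mus members, and Mrc1, Trem2, Stab1 and Lyve1 were at or under 5 UMIs in both libraries.

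Pf4, which encodes a chemokine of platelets and of tissue macrophages, had 287 UMIs in 8 Acomys and 28 in 6 Mus members, a ratio of 23.95 (16.2 to 36.7). In Acomys 2 members held 263 of these UMIs, 137 of 5597 in 1 and 126 of 533 in the other. Both had 0 UMIs of Tyrobp, Csf1r, Cd74 and Spi1, entered through 3 and 4 Fcer1g UMIs, and together had 1 UMI of the pan-leukocyte genes, so those genes did not mark them as myeloid. With 5 rule UMIs required, which leaves them out, the log2 ratio of Pf4 was 1.12, against 4.56 with all members.

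S100a8, a calcium-binding protein of neutrophils that keratinocytes also make, had 151 UMIs in 6 Acomys and 391 in 8 Mus members, a ratio of 0.902 (0.743 to 1.09) beside 13.9 elsewhere. It was concentrated in 2 Acomys members with 51 and 96 UMIs and in 3 Mus members with 113, 114 and 125. The 2 Acomys members had 7 and 16 UMIs of Cd74 and 0 of Csf3r, the granulocyte growth factor receptor, and S100a9 had no symbol in the Acomys list. The 3 Mus members had 54 to 97 UMIs of S100a9, 1 or 2 of Csf3r and 0 or 1 of Cd74. The neutrophil markers Ngp, Camp, Ltf and Mmp8 had at most 2 UMIs each over the members of either library. Neutrophil markers of each library's own gene list summed to 2292 CPM in members, 220.2 in other barcodes and 1815 in free RNA in Acomys, and to 4206, 34.2 and 1163 CPM in Mus. The part of free RNA in these values was not tested. Both Acomys members lie under 1000 UMIs: with that minimum the log2 ratio of S100a8 was -5.06, against -0.15 with all members.

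In 4 Acomys members, but in 0 Mus members (a share of up to 4.35% at this count), a UMI of Nkg7 or Gzma was found, genes of cytotoxic granules in natural killer and T cells. Gzma had 29 UMIs, all in 1 member of 795 UMIs that also had 13 of Nkg7, 6 of Fcer1g and 0 of Tyrobp and Csf1r. Fcer1g is also made by natural killer cells, and the rule reads CD3 genes alone for lymphocytes. Apoa4, an apolipoprotein gene, had 160 UMIs in 5 Acomys members and 0 in Mus. Of these, 150 were in 1 member of 2037 UMIs with 27 UMIs of Cd74, 5 of Csf1r and 14 of Gpnmb, a lysosomal glycoprotein of macrophages.

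The counts of the lists below are to be read beside the shares over all 1860 genes. Those were 18.0% higher and 24.6% lower, and relative to other barcodes 14.8% and 10.8%. A count near these shares says nothing particular about its list. Ordered by role, receptors and their signalling came first. Of 8 measured genes of the ITAM pathway list, 4 were at least 2-fold higher in Acomys members and 2 lower. The median log2 ratio was 0.96. Relative to other barcodes 3 were higher and 1 lower, and the median was 0.23. Besides Fgr, Lyn, another Src-family kinase, had 26 UMIs in 16 Acomys and 15 in 13 Mus members, a ratio of 4.05 (2.07 to 8.22). Cd300a, an inhibitory receptor, had 30 in 13 Acomys and 12 in 6 Mus members, a ratio of 5.84 (2.90 to 12.5), and the phosphatase gene Ptpn6 had 0.935 (0.569 to 1.49). The lower genes were Sirpa, which encodes the receptor for CD47, with 0 UMIs in Acomys and 26 in 19 Mus members, and Dap, which is not a known gene of the pathway, with 0 in Acomys and 33 in 17 Mus members. Of the rule genes, Fcer1g had a ratio of 5.38 (4.57 to 6.36) beside 1.69 elsewhere and Tyrobp 0.381 (0.287 to 0.499) beside 0.184 elsewhere, given as a description.

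Transcription factors differed in both directions, with 2 of 7 at least 2-fold higher, 2 lower and a median log2 ratio of -0.23. Relative to other barcodes 2 were higher and 1 lower, and the median was 0.77. Spi1 had a ratio of 1.41 (1.06 to 1.86). Beside Cebpb, Irf5, a factor of inflammatory gene induction, was higher, with 22 UMIs in 14 Acomys and 20 in 14 Mus members, a ratio of 2.57 (1.34 to 4.96). Cebpa had 0 UMIs in Acomys members and 25 in 17 Mus members and was also near 0 in other Acomys barcodes, at 1.10 CPM against 196 in Mus. Irf8, needed for monocytes and some dendritic cells, had 1 UMI in Acomys and 25 in 22 Mus members, a ratio of 0.0934 (0.00228 to 0.571) beside 0.104 elsewhere.

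Pan-leukocyte genes were split, with 3 of 10 at least 2-fold higher, 5 lower and a median log2 ratio of -0.43. Relative to other barcodes, however, 1 was higher and 5 were lower, with a median of -1.18. Srgn, the core protein of granule proteoglycans, had a ratio of 3.04 (2.07 to 4.48) beside 4.31 elsewhere. Coro1a had 2.61 (2.10 to 3.26) beside 3.55, and Arhgdib 2.43 (1.89 to 3.14). On the low side, Cd52 had 8 UMIs in 5 Acomys and 207 in 50 Mus members, a ratio of 0.0903 (0.0385 to 0.181) beside 1.12 elsewhere. Laptm5, a lysosomal membrane protein of leukocytes, had 0.451 (0.252 to 0.764).

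Of the 6 NADPH oxidase genes, 2 were at least 2-fold higher and 2 lower, with a median log2 ratio of -0.07, and relative to other barcodes 1 was higher and 3 lower, with a median of -0.78. Cyba, the small membrane subunit, had 225 UMIs in 32 Acomys and 196 in 51 Mus members, a ratio of 2.68 (2.205 to 3.27) beside 7.04 elsewhere. Ncf1 had a ratio of 7.01 (3.20 to 16.9). Cybb, the catalytic subunit, had 0 UMIs in Acomys members and 26 in 6 Mus members, and it was near 0 in other barcodes of both libraries, at 0.0307 CPM in Acomys and 0.121 in Mus.

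Lysosomal genes gave 6 of 17 at least 2-fold higher, 3 lower and a median log2 ratio of 0.32, but relative to the ratios in other barcodes 2 were higher and 5 lower, with a median of 0.11. Lgmn, the asparaginyl protease legumain, had 29 UMIs in 15 Acomys and 14 in 10 Mus members, a ratio of 4.84 (2.48 to 9.91) beside 1.24 elsewhere. Ctsb, cathepsin B, had 2.07 (1.47 to 2.90), and Ctss 1.28 (1.02 to 1.61). Cst3 had 401 UMIs in 42 Acomys and 2299 in 62 Mus members, a ratio of 0.408 (0.366 to 0.453), and Npc2, a cholesterol carrier of lysosomes, 0.230 (0.116 to 0.416).

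Lipid genes gave 3 of 10 at least 2-fold higher, 4 lower and a median log2 ratio of -0.62, but relative to other barcodes 3 were higher and 3 lower, with a median of 0.53. The eicosanoid genes Ltc4s, Hpgds and Ptgs1 were on the low side, Hpgds, the haematopoietic prostaglandin D synthase, at 0.167 (0.0654 to 0.357). Alox5ap, which presents arachidonic acid to 5-lipoxygenase, was not, with 86 UMIs in 27 Acomys and 242 in 48 Mus members and a ratio of 0.830 (0.641 to 1.07). Lgals3 was counted among the lower genes but gave no UMI in any Acomys barcode within the limits, so no fold is given. Apoe had 717 UMIs in 44 Acomys and 1102 in 65 Mus members, a ratio of 1.52 (1.38 to 1.67) beside 1.69 elsewhere. Its members lay below other barcodes in both libraries, at 0.539 of their level in Acomys and 0.599 in Mus.

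Chemokines gave 3 of 4 measured genes higher, 1 lower and a median log2 ratio of 2.73, against 0.88 without members under 1000 UMIs. Relative to other barcodes 2 were higher and 0 lower, with a median of 0.76. The 4 include Pf4, most of whose Acomys UMIs came from 2 members that the pan-leukocyte genes did not mark as myeloid. Cxcl16, the ligand of CXCR6, had 35 UMIs in 18 Acomys and 34 in 15 Mus members, a ratio of 2.41 (1.46 to 3.97). Cxcl16 in members was 3.01-fold its level in other barcodes in Acomys and 3.09-fold in Mus, so the species ratio was similar elsewhere. Ccl6 had 9 in 6 Acomys and 94 in 15 Mus members, a ratio of 0.224 (0.0992 to 0.443). Ccl5 had 0 UMIs in Acomys members and 56 in 2 Mus members. Ccl6 and Ccl5 were both lower, so at most 1 of them is among the 4 counted. Il1b, the inflammasome cytokine interleukin-1β, had 18 in 9 Acomys and 26 in 7 Mus members, a ratio of 1.62 with an interval of 0.835 to 3.07. Of interferon response genes, 2 of 4 were higher and 0 lower, with a median log2 ratio of 0.85, but relative to other barcodes 1 was higher and 3 lower, with a median of -1.59. Psmb9, an immunoproteasome subunit, had 44 in 21 Acomys and 17 in 13 Mus members, a ratio of 6.05 (3.39 to 11.3).

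Dividing each ratio by the ratio in other barcodes sets the difference in members against that in the mainly epidermal rest of the library. On that scale 14.8% of the 1860 genes were at least 2-fold higher in Acomys members, while 10.8% were 2-fold or more lower, with a median log2 of 0.12. Genes that stood high were Pglyrp1 at a log2 of 5.89, Chil1, a chitinase-like protein, at 5.43, and Prr13 at 3.02. Genes that stood low were Mfge8 at -6.95, Mpeg1, the pore-forming perforin-2 of phagocytes, at -6.26, and Cd52 at -3.55. Mpeg1 had similar levels in members, 244 CPM in Acomys and 135 in Mus, but 45.3 CPM in Acomys and 0.318 in Mus in other barcodes. For MHC class II the median of the 4 genes on that scale was -0.25, with 0 of 4 at least 2-fold from 1 in either direction. The Langerhans list had 0 of 7 higher and 4 lower.

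Some of the highest member genes in Acomys carried an identifier and no symbol. ACOCA10068_EIv1_0229920 had 303 UMIs in 20 members, 559-fold above other barcodes, and ACOCA10068_EIv1_0139010 had 217 UMIs in 17, 785-fold above. ACOCA10068_EIv1_0226540 had 22 UMIs in 13 members. No name or role is given to them.

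Each library's members were also clustered alone. Acomys gave clusters of 30 and 14 members and Mus clusters of 50 and 19. The 50 Mus members were Langerhans-like by 8 of 9 fixed markers, whereas the other 3 clusters stayed unnamed. With 113 barcodes in all, these groups moved with the settings. At resolution 1 each library gave 4. In Acomys these held a Langerhans-like cluster of 11 and a macrophage-like cluster of 6. A further Acomys cluster of 14 was named natural killer cell-like, by Nkg7, Klrd1 and Prf1. However, the 12 natural killer cell markers, 8 of them with a symbol in the Acomys list, had UMIs in only 4 Acomys members. The name therefore does not describe most of the 14. In Mus no cluster kept the Langerhans-like name. A Mus cluster of 12 members with a median of 7545 UMIs was named basal keratinocyte-like, by 6 of the 8 fixed markers, which goes against the myeloid label. Without the 1 Mus member marked as a doublet, Mus gave a monocyte-like cluster of 23 and a Langerhans-like one of 45. Doublet scoring marked a share, set in advance, of the highest-scoring barcodes, 1419 of 12970 in Acomys and 1883 of 15342 in Mus. Among them were 0 Acomys members and 1 Mus member, the barcode of 32405 UMIs. With a cutoff set this way, the score cannot show that the other members were single cells.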

How the data were processed

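The authors deposited raw UMI counts per gene and barcode, unfiltered, for 737280 barcodes a library. They were made with Cell Ranger 2.2.0 on mm10, per the submitters' processing notes, which name mm10 for both species, but the Acomys gene list holds Acomys identifiers and 0 mitochondrial genes, and its annotation is not named in the sources used here. Companion files list gene names and barcodes.

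From these counts, member UMIs were summed per library and scaled to CPM over shared symbols. Ratios carry exact conditional binomial 95% intervals, and log2 ratios use a prior count of 0.5. Against 0 UMIs a bound uses 3 counts over the group. Genes were counted at 20 UMIs or more, which for members against other barcodes could be observed or expected. Members were clustered with scanpy 1.11.5 (Leiden, resolution 0.5, 1000 variable genes, 15 components). A Scrublet-like score marked doublets, which were kept. Scripts used Python 3.11.15, numpy 2.4.6, scipy 1.17.1 and pandas 2.3.3 and were tested on simulated data.

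The members and gene lists were chosen with earlier results of these data known. Named genes were the rule genes, markers and list genes with 20 UMIs, the 15 genes a library highest in members over other barcodes, and the 12 highest and 12 lowest relative to other barcodes. Genes named from sets of few members, Runx3, Ngp, Camp, Ltf, Mmp8, Csf3r, Mrc1, Trem2, Stab1, Lyve1, Xcr1, Clec9a, Batf3, Krt5 and the genes 100-fold higher in both libraries were chosen after their values were seen. Alternatives changed the UMI minimum, rule UMIs, scaling, averaging, free RNA, keratin share, thinning and clustering.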

Additional observations from a re-analysis of the deposited data

Results flagged for a closer look

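In 2 genes of the interferon response list, members stood below other barcodes in Acomys and above them in Mus, with both counting intervals clear of 1. Ifitm3, which encodes a membrane protein that hinders virus entry, had 160 UMIs in 32 Acomys members, at 0.511 of the level in other barcodes (0.435 to 0.596), and 150 UMIs in 22 Mus members, at 1.79 (1.51 to 2.10). The log2 ratio of Acomys over Mus relative to other barcodes was -1.81. Ifitm2, a gene of the same family, had 83 UMIs in 31 Acomys members, at 0.544 (0.434 to 0.675), and 179 in 45 Mus members, at 1.42 (1.22 to 1.65), a relative log2 ratio of -1.38. Within members the Acomys value was not the lower of the species: the ratio of Acomys to Mus was 2.49 for Ifitm3 and 1.08 for Ifitm2, and in other barcodes it was 8.73 and 2.83. These paralogous genes can share reads, and with 1 library a species the difference was not tested.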

How the results depend on the processing

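No paired analysis was possible because each species has 1 library. The share of barcodes that were members was 0.483% in Acomys with a minimum of 1000 UMIs and 0.224% with 5 rule UMIs, against 0.339%, and in Mus 0.632% with 2 rule UMIs and 0.313% with 5, against 0.450%. Thinning to 500 UMIs lowered the shares with a UMI to 9.09% for Plac8, 15.9% for Cx3cr1 and 2.27% for Mfge8 in Acomys, and to 29.0% for Cd207, 4.35% for Plac8 and 33.3% for Mfge8 in Mus. The chemokine median of 2.73 was 0.88 with 1000 UMIs and 0.75 with 5 rule UMIs. Resolution 1 gave 4 clusters in each library, against 2. Of the single-gene values, 4 changed sign. With 1000 UMIs, Gzma, log2 members over other barcodes in Acomys, was -1.37, against 4.37, and S100a8, log2 members over other barcodes in Acomys, was -1.86, against 3.39. With the mean of member CPM, Gzma, log2 Acomys over Mus relative to other barcodes, was 0.82, against -2.70. With 5 rule UMIs, Pf4, log2 Acomys over Mus relative to other barcodes, was -2.19, against 1.71. Each rests on 1 or 2 members, which these settings leave out or weight differently. Of the other single-gene values, 107 moved by more than their counting interval and 1674 stayed within it. Leaving out the largest member or the member richest in the gene, or requiring a pan-leukocyte UMI, were alternatives added after seeing the data: they moved 19 single-gene values, kept 838 and reversed 0. Depth limits genes of few UMIs, since 31 members had under 1000.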
